A study of Mus musculus with 5 samples.

Results

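Intronic binding of RXRα in alveolar macrophages (AMs) was described for 1610 regions in which both wild-type (WT) libraries had a peak. Peaks of the libraries WT A and WT G were merged where they overlapped by at least 1 bp, which gave 10461 merged regions, of which 3423 held a peak of both libraries. A region was taken as intronic where its midpoint was in an intron of a GENCODE transcript on mm10, outside exons, promoters (1 kb upstream to 100 bp downstream of a transcription start site, TSS) and transcript ends (100 bp upstream to 1 kb downstream), with the nearest TSS of a protein-coding gene within 100 kb. Of the 3423 shared regions, 1740 were intronic, and 130 of these lay beyond the distance limit. The region just inside the limit was 99.98 kb from its TSS, in Lipc, with −log10 q values of 8.06 for WT A and 9.26 for WT G. The one just outside was at 101.5 kb, in App, with 32.8 and 15.9. The 1610 regions became 703 where peaks had to overlap by 50%, 2207 without WT G and 4568 without WT A.

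AMs were obtained by bronchoalveolar lavage and FACS from mice of the C57BL/6J strain. Mice of both genotypes were 9 wk old, as stated in the description of the RXRα profiles. All mice carried floxed alleles of Rxra and Rxrb. WT mice had no Cre (CD11cCre- Rxrabfl/fl), and KO mice carried Cre under Cd11c control (CD11cCre+ Rxrabfl/fl), so that deletion is not limited to AMs. There were 2 ChIP libraries per genotype (WT A, WT G, KO A and KO G), made by HT-ChIPmentation, in which chromatin is immunoprecipitated, here with an anti-RXRα antibody, and tagged with Tn5 on the beads. Nothing in the labels says whether a library came from 1 mouse or from a pool, or that the libraries of a genotype came from separate mice, so the spread between them may be technical. RXRβ was also deleted in KO mice, and was not profiled.

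RXRs are nuclear receptors that bind DNA as homodimers or as heterodimers with other receptors, among them PPARs, LXRs, RARs and the vitamin D receptor. Each receptor of a dimer contacts a hexamer close to AGGTCA, and the number of bases between direct repeats (DR) of the hexamer favours certain partners: DR1 (1 base) is bound by PPAR-RXR and by RXR homodimers, DR4 by LXR-RXR and DR5 by RAR-RXR. Much of the binding of such receptors in macrophages lies in introns and between genes, at enhancers opened together with lineage factors such as PU.1 and C/EBP. In AMs, RXR and PPARγ are known for their part in lipid handling, which includes the clearance of surfactant.

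The sequences under the intronic peaks are shown first for members with a DR1, with up to 2 mismatches, in the 101 bases around the WT summit. DR1 is a repeat that RXR dimers bind, but a match does not show that one was bound. Each line gives 101 bases of the plus strand of GRCm38 (mm10), centred on the summit of the stronger WT peak, with the best DR1 (the one nearest the summit where several tie) and matches to C/EBP, PU.1, RUNX or AP-1 in capitals. The window of A530013C23Rik holds 2 further DR1 matches with 2 mismatches that are not in capitals. The first 2 hold a DR1 without mismatch, the next 3 a DR1 with 1 mismatch, and the last 3 a DR1 with 2 mismatches. The last capitals in 4930552P12Rik mark a RUNX match, and the first capitals in Fgfr2 mark a C/EBP match.
Smg6 intron 13, chr11:75137093-75137193: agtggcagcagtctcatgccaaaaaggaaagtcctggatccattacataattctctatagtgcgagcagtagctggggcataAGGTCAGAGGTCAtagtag
Rrbp1 intron 1, chr2:144009536-144009636: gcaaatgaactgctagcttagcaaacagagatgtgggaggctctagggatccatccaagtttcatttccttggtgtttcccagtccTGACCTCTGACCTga
Abcd2 intron 6, chr15:91173121-91173221: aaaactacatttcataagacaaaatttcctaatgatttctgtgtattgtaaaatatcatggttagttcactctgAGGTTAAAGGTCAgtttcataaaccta
Itpkb intron 2, chr1:180404389-180404489: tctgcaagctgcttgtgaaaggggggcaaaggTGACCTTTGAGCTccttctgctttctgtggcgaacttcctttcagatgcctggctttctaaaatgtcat
4930552P12Rik intron 2, chr19:55660174-55660274: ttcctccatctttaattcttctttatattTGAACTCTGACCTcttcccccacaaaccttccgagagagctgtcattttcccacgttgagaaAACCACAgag
A530013C23Rik intron 2, chr2:167724049-167724149: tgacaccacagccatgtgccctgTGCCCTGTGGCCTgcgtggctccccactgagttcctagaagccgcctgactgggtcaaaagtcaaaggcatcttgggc
Fgfr2 intron 2, chr7:130636575-130636675: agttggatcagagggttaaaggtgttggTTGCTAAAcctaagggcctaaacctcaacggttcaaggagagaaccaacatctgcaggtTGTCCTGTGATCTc
Shc3 intron 1, chr13:51553521-51553621: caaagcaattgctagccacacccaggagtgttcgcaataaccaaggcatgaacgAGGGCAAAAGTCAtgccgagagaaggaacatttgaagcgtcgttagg

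Most members had no DR1 at the summit, and 5 further windows are given. Angptl4 is shown as one of the strongest members without a match, and the other 4 were chosen among the named members because they hold a match to another motif, so they do not stand for the members as a whole, of which 68.9% had no match to any of the 5 motifs. The windows of Abcd2, Atf3, Cd36 and Krt79 held a C/EBP match, a C/EBP and a RUNX match, a RUNX match and a PU.1 match, in that order.
Angptl4 intron 3, chr17:33779380-33779480: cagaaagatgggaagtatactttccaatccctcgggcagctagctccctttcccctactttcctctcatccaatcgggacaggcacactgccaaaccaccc
Abcd2 intron 3, chr15:91180014-91180114: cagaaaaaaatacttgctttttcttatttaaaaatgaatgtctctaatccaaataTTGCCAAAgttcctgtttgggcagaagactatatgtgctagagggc
Atf3 intron 1, chr1:191197943-191198043: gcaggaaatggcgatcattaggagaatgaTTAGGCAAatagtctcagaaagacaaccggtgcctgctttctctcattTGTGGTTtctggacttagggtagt
Cd36 intron 2, chr5:17835761-17835861: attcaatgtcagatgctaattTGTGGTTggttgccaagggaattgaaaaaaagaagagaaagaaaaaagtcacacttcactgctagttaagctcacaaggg
Krt79 intron 2, chr15:101936519-101936619: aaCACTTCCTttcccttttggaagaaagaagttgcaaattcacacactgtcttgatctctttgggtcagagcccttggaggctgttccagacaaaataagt

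The lists differed in length. WT A held 4751 peaks, WT G 9766, KO A 83 and KO G 208. Total read counts are not in the lists, but the number of fragments at each summit could be derived from the fold enrichment and p-value for 99.96% of the peaks in WT A and 100% in the other lists. The weakest peak had 10 (WT A), 5 (WT G), 10 (KO A) and 8 (KO G) fragments, so WT G called peaks on fewer fragments than the other libraries. As a check of the cell type, 4 of 9 AM markers hosted an intronic member (Siglecf, Pparg, Mrc1 and Krt79), beside 4.43% of all protein-coding genes with an intron, and Car4 was the nearest gene to 1. Of the markers of other cells, 1 of 9 for monocytes and other macrophages (Cx3cr1), 1 of 7 for lymphocytes (Ms4a1), 1 of 2 for endothelium (Pecam1), 0 of 6 for epithelium, 0 of 3 for neutrophils and 0 of 2 for fibroblasts hosted one. Genes with long introns host more members, the counts are small, and peaks do not measure expression, so the purity of the sort was not tested. Neither Rxra nor Rxrb hosted an intronic member or was nearest to a shared region, and Itgax, which encodes CD11c, hosted none and was nearest to 1 shared region that was not intronic by the rule. The deleted exons could not be checked from peaks.

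Intronic peaks were then compared between genotypes over all peaks of each library, because members had to have WT peaks. The intronic peaks numbered 2411 (WT A), 4913 (WT G), 39 (KO A) and 94 (KO G). WT libraries averaged 3662 ± 1769 (SD, n = 2) and KO libraries 66.5 ± 38.9 (SD, n = 2), a WT to KO ratio of 55.1, which was 36.3 without WT G and 93.9 without KO G. Both WT libraries were above both KO libraries, with an exact permutation p of 0.33 (two-sided), the smallest that 2 against 2 libraries can give, so the design could not reach 0.05. The intronic share of all peaks was 50.7% in WT A (95% exact binomial interval 49.3 to 52.2), 50.3% in WT G (49.3 to 51.3), 47.0% in KO A (35.9 to 58.3) and 45.2% in KO G (38.3 to 52.2). The shares of WT lay above those of KO by 4.44 percentage points on average (exact permutation p = 0.33), but the intervals of both KO shares held the WT values. With RefSeq annotation the difference was 7.99 points. Intervals given here cover counting error only. Numbers of called peaks also depend on the depth and background of a library, which were not made equal.

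KO peaks in introns lay almost entirely where WT libraries had peaks. All but 1 of the 39 intronic KO A peaks and each of the 94 intronic KO G peaks overlapped a peak of a WT list. Of them, 32 and 75 lay on members, and 36 and 90 on shared regions of any kind. Over the whole lists of 83 KO A and 208 KO G peaks, 74 and 183 shared regions held one. The overlap is therefore not read as a trait of introns. Among the 1610 members, 84 had a peak in either KO list (5.22%, 4.18 to 6.42), beside 5.87% of all 3423 shared regions. KO A had a peak in 32 members (1.99%, beside 2.16% of all shared regions), KO G in 75 (4.66%, beside 5.35%) and both in 23 (1.43%, beside 1.64%). The members' shares were thus near the background. Where peaks had to overlap by 50%, 10 of 703 members had a KO peak (1.42%), beside 1.94% of the 1546 regions shared under that rule. The share was 4.86% (2.91 to 7.58) in the 370 promoter regions and 6.72% (5.21 to 8.52) in the 937 intergenic regions within 100 kb, with intervals that overlap that of the intronic members.

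The strength of the members was measured as the fold enrichment at the summit over the local background, and as the −log10 q, for which the threshold of 0.05 corresponds to 1.301. The −log10 q of the strongest peak in a member ran from 1.57 to 48.5 in WT A (median 7.14) and from 1.73 to 41.6 in WT G (median 8.04). Fold enrichment had medians of 6.72 (WT A) and 7.61 (WT G), and the median number of fragments at the summit was 17 and 11. Across members the −log10 q of the libraries was related with a Spearman rho of 0.51 and a Pearson r of 0.64 (n = 1610 members, which share the input control and the libraries, so these are descriptions). Promoter regions had medians of 7.14 and 6.88, and intergenic regions of 8.06 and 8.04, in WT A and WT G. Members had a median width of 578 bp, from 215 to 3661 bp, and together covered 1104 kb.

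The 6 members with the highest ranks over both WT lists lay in a long non-coding RNA gene and in 5 protein-coding genes. The first was in intron 2 of 3 of A530013C23Rik, a lincRNA (chr2:167723521-167724593), and its nearest protein-coding TSS, 35.1 kb away, was that of Cebpb, which encodes C/EBPβ. Its −log10 q was 48.5 (WT A), 36.4 (WT G), 18.9 (KO A) and 29.3 (KO G), with fold enrichments of 21.2, 19.99, 12.2 and 16.0. Both KO values were below both WT values.

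Rab20, a small GTPase of endosomes and phagosomes, held the second in its single intron (chr8:11463395-11465284). The fold enrichment was 18.9 (WT A), 18.1 (WT G), 5.10 (KO A) and 7.23 (KO G). Fgfr2, a fibroblast growth factor receptor, held the third in intron 2 (chr7:130636236-130637443), 9.39 kb upstream of the TSS of Tacc2, with fold enrichments of 17.2 (WT A), 17.4 (WT G) and 5.64 (KO G) and no peak in KO A. The peaks in Angptl4, Nrg4 and Sept9 followed, and in each of the 6 members the KO values were lower than both WT values, which the choice of the strongest WT members favours. In Angptl4, an inhibitor of lipoprotein lipase, the region was in intron 3 of 6, 1.91 kb from the TSS (chr17:33778894-33780956), with fold enrichments of 15.0 (WT A), 18.1 (WT G), 6.10 (KO A) and 7.23 (KO G). In Nrg4, a ligand of the ErbB4 receptor, it was in intron 4 of 8 (chr9:55252958-55254689), with 14.6, 19.99, 6.61 and 6.72. In Sept9, a septin of the cytoskeleton, it was in intron 3 of 11, with 15.3 (WT A), 16.8 (WT G) and 6.72 (KO G), and no peak in KO A.

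Of these 6, the windows of A530013C23Rik, Fgfr2 and Sept9 held a DR1 with 2 mismatches, and those of Rab20, Angptl4 and Nrg4 did not. Over their whole lengths the regions of these other 3 genes also held a DR1 with 2 mismatches, centred 288 bp from the summit in Rab20, 127 bp in Angptl4 and 236 bp in Nrg4. These regions are 1890, 2063 and 1732 bp wide, and longer sequence holds more matches.

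**Figure D1:**
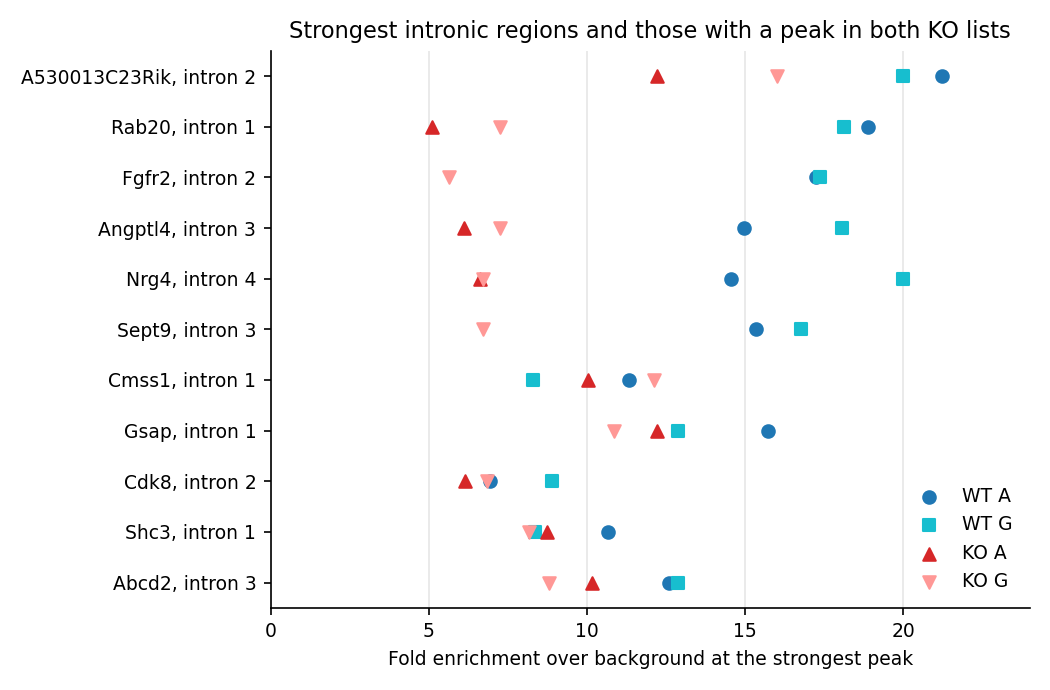
Fold enrichment over the local background (x axis, ratio of ChIP to background with a pseudocount of 1) of the strongest peak of each library in the 6 strongest intronic members and in those with the highest −log10 q in both KO lists. Each point is 1 library, and a missing point is a library without a peak. In the upper 6 rows, chosen for their WT strength, every KO point lies left of both WT points, whereas in Cmss1 the points of KO A (10.03) and KO G (12.1) lie above that of WT G (8.30), and that of KO G also above WT A (11.3).

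The members with a peak in both KO lists numbered 23. Ranked by the smaller of their KO −log10 q values, the leading 6 were in Cmss1, A530013C23Rik, Gsap, Cdk8, Shc3 and Abcd2. Cmss1 (intron 1, chr16:57391349-57391698) had a −log10 q of 36.9 (WT A), 14.4 (WT G), 29.8 (KO A) and 30.4 (KO G), so its KO values lay between those of the WT libraries on this scale. By fold enrichment, with 11.3 (WT A), 8.30 (WT G), 10.03 (KO A) and 12.1 (KO G), KO G was above both WT libraries. The derived background there was 4.53 (WT A), 2.13 (WT G), 3.88 (KO A) and 2.55 (KO G) fragments, against commonest values of 1.42, 0.551, 0.966 and 0.936 in these lists. Cdk8, a kinase of the Mediator complex, had fold enrichments of 6.94 (WT A), 8.90 (WT G), 6.15 (KO A) and 6.83 (KO G) (intron 2, chr5:146261004-146261349), with backgrounds of 5.66, 2.37, 4.53 and 3.39 fragments. Both regions were narrow (350 and 346 bp). In Shc3, an adaptor protein gene, the fold enrichment was 10.7, 8.36, 8.72 and 8.16 (intron 1, chr13:51553237-51553888) in the order WT A, WT G, KO A and KO G, and the background was 2.26, 0.555, 1.29 and 1.697 fragments, above the commonest value in WT A, KO A and KO G and close to it in WT G. The part of the background in these KO peaks was not tested.

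Gsap and Abcd2, by contrast, had the commonest background of each list. Gsap, which encodes the γ-secretase activating protein, had fold enrichments of 15.7 (WT A), 12.9 (WT G), 12.2 (KO A) and 10.9 (KO G) (intron 1 of 30, chr5:21188408-21190410). Abcd2, a peroxisomal transporter of very long-chain fatty acids, had 12.6, 12.9, 10.2 and 8.78 in the same order (intron 3 of 9, chr15:91178468-91180328). A second member in Abcd2 (intron 6, chr15:91172051-91173459), which has a DR1 with 1 mismatch, had 12.6 in WT A and 12.3 in WT G and no peak in either KO list.

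Since no source pairs the libraries, each KO peak in a member was set beside both WT libraries. The fold enrichment of KO A was below that of both WT libraries in 29 of 32 members, the exceptions being in Senp7, Shc3 and Cmss1, with a median of 7.12 in KO A against 12.9 in each WT library. That of KO G was below both in 69 of 75 members, the exceptions being in Arid5b, Cmss1, Usp25, Tlr4, Lpxn and Sec24b, with a median of 6.20 in KO G against 11.4 (WT A) and 12.3 (WT G). Fold enrichments of different libraries also depend on their depth and background, and members were chosen for their WT peaks, so these counts are given with no test. The exceptions were named after their values were seen.

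Members with a KO peak were mostly among the strongest WT members. When members were ordered by the sum of their ranks over both WT lists and divided into 5 equal groups of 322, 71 members of the strongest group had a KO peak (22.0%, 17.6 to 27.0). The following groups had 8 (2.48%, 1.08 to 4.84), 3 (0.932%, 0.193 to 2.70), 0 (at most 1.14% by the exact interval) and 2 (0.621%, 0.0753 to 2.23). Median −log10 q in WT A fell from 15.8 in the first group to 4.31 in the last. The 84 members with a KO peak had a median of 31 fragments at the summit in WT A and 18 in WT G, against 17 and 11 for the other 1526. Their median width was 1066 bp, against 563 bp. Whether and how far binding fell in members without a KO peak cannot be read from lists of called peaks.

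DR1 was the most frequent of the direct repeats at the summits. Repeats of AGGTCA with 0 to 8 bases between them (DR0 to DR8) were searched on both strands with at most 2 mismatches in the 12 hexamer bases, in the 101 bp around the summit and in windows of the same length centred 500 bp to each side. DR1 was found in 103 members (6.40%, 5.25 to 7.71), against 30 and 19 windows on the flanks (mean 1.52%), a ratio of 4.20. Of all 3423 shared regions, 6.34% had a DR1 at the summit, so the members' share was that of the series. It was 5.41% (3.33 to 8.23) in promoter regions and 7.26% (5.68 to 9.11) in intergenic regions within 100 kb, with intervals that overlapped. The repeat with the same spacing but shuffled hexamers (ACAGTG) was found in 1.24% of members at the summit and 1.12% on the flanks. With at most 1 mismatch the DR1 share of members was 1.37% (ratio 11.0). In windows of 100 bp on each side it was 11.0% (ratio 3.11).

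The other spacings were rarer. DR2 was found in 2.92% of members (flanks 1.27%), DR5, the spacing of RAR-RXR, in 2.55% (1.12%), DR0 in 2.17% (1.49%), DR4, the spacing of LXR-RXR, in 1.93% (1.15%) and DR3, the spacing of the vitamin D receptor, in 1.86% (0.745%). DR6, DR7 and DR8 lay between 1.37% and 1.68%, with flanks between 0.839% and 1.06%. The lower bound of the DR1 share (5.25%) was above the upper bound of every other spacing, of which the highest was 3.86% for DR2. The lower bounds of DR2, DR3, DR4, DR5, DR6 and DR8 were above their flank shares, that of DR0 exceeded its own only slightly (1.52% against 1.49%), and that of DR7 (0.858% against 1.06%) was below. Matches of different spacings can overlap. Any of the 9 repeats was found in 283 members (17.6%), against a mean of 8.42% on the flanks.

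Among motifs of other factors, the C/EBP motif (TTGCNNAA, no mismatch) was found at the summit of 174 members (10.8%, 9.33 to 12.4), against 3.82% on the flanks and 11.0% of all shared summits. The PU.1 motif (AGGAAGTG) was found in 72 members (4.47%, 3.52 to 5.60), with 1.06% on the flanks and 4.62% of all shared summits, and its ratio of 4.24 was close to that of DR1. RUNX (TGTGGTT) was found in 6.40% against 2.95% on the flanks (5.93% of all shared summits), and AP-1 (TGANTCA) in 7.27% against 3.91% (7.51%).

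The motifs of STAT5, SMAD and RBPJ, factors downstream of GM-CSF, TGFβ and Notch, had flank shares within the counting intervals of their summit shares. STAT5 (TTCNNNGAA) was found in 3.79% (2.91 to 4.84) against 3.07% on the flanks and 3.77% of all shared summits. The SMAD palindrome (GTCTAGAC, at most 1 mismatch) was found in 1.86% (1.26 to 2.65) against 2.30%, and in 2.02% of all shared summits. RBPJ (TGTGGGAA) was found in 0.497% (0.215 to 0.977) against 0.776%, and in 0.701% of all shared summits. The E-box (CACGTG) was found in 2.17% (1.52 to 3.01) against 1.37%, and in 1.81% of all shared summits, and the longer MITF form that contains it (TCACGTGA) in 2 members and no flank, with 0.0876% of all shared summits. The RUNX and RBPJ letters share the start TGTGG. These are matches of letters in a short window and say nothing of whether a factor was bound. Each motif was searched as 1 fixed set of letters, so other forms of it were not counted.

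**Figure D2:**
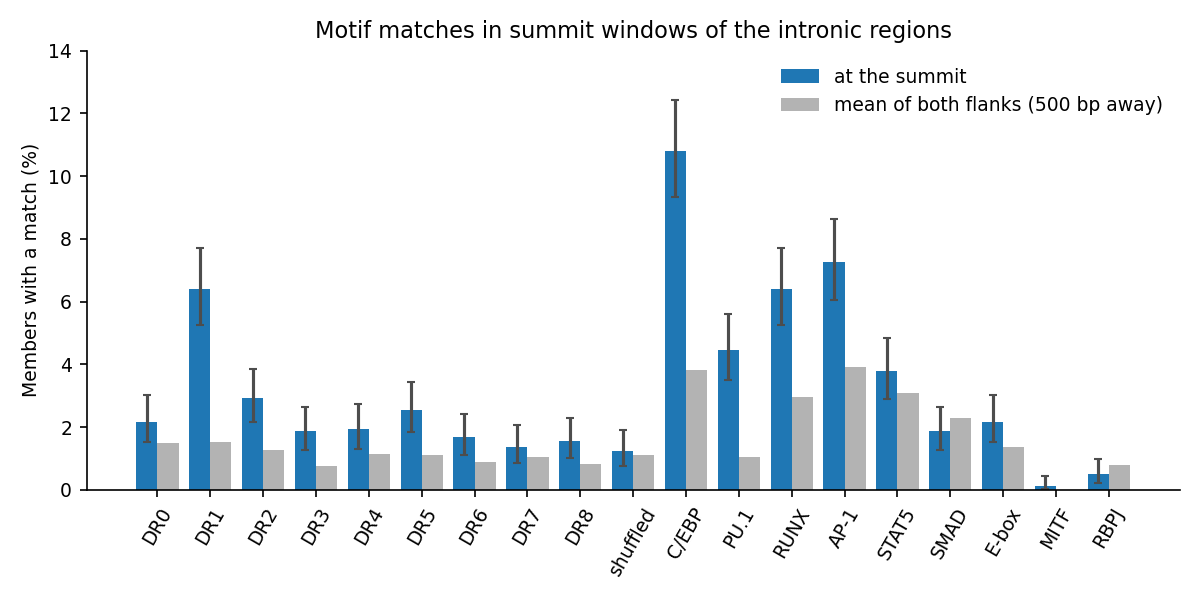
Share of the 1610 intronic members (y axis, %) with a motif match in the 101 bp around the WT summit (blue, with 95% exact binomial intervals) and in windows 500 bp to each side (grey, mean of both flanks), for direct repeats DR0 to DR8, the shuffled control and motifs of other factors (x axis). DR1 (6.40%) stands above the other spacings (1.37% to 2.92%), and SMAD and RBPJ are not above their flanks.

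The centre of the DR1 was within 20 bp of the summit in 54 of 103 members (52.4%), beside 9 of 20 (45%) for the shuffled repeat and 73 of 174 (42.0%) for C/EBP, and other motifs lay between 37.1% for the E-box and 75% for RBPJ, with few members for several of them, and 0 of 2 for MITF. The matches were thus not shown to crowd at the summit within this window. Of the 103 members with a DR1, 11 also held a C/EBP match (10.7%, beside 10.8% of all members), 8 an AP-1 (7.77%, beside 7.27%), 5 a RUNX (4.85%, beside 6.40%) and 3 a PU.1 match (2.91%, beside 4.47%). At least 1 of these 5 motifs was found in 501 members (31.1%), and 1109 (68.9%) had none within this window. Repeat-masked sequence made up most of the window in 98 members (6.09%, 4.97 to 7.37), against 17.4% of the flanks, and the mean GC content was 45.5% at summits and 46.1% on flanks.

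The DR1 share was higher in the stronger groups of members. It was 10.9% (7.69 to 14.8) and 9.63% (6.64 to 13.4) in the first and second groups by WT rank, and 4.04% (2.17 to 6.81), 3.42% (1.72 to 6.03) and 4.04% (2.17 to 6.81) in the others. The intervals of the first group and the last 3 did not overlap. For C/EBP the shares were 12.7%, 12.7%, 13.7%, 8.39% and 6.52% in the same order. The 3 members without a mismatch in DR1 had a median −log10 q of 14.7 (WT A) and 10.5 (WT G), the 19 with 1 mismatch 11.3 and 10.5, the 81 with 2 mismatches 10.2 and 9.26, and the 1507 with 3 or more 7.14 and 8.04. A KO peak was found in 10 of the 103 members with a DR1 (9.71%, 4.76 to 17.1) and in 74 of the other 1507 (4.91%, 3.88 to 6.13), with intervals that overlap. For the other motifs, members with and without a KO peak had shares of 13.1% (6.72 to 22.2) and 10.7% (9.18 to 12.3) for C/EBP, of 3.57% (0.743 to 10.1) and 6.55% (5.36 to 7.91) for RUNX, of 5.95% (1.96 to 13.3) and 7.34% (6.08 to 8.76) for AP-1, and of 0% (at most 4.30%) and 4.72% (3.71 to 5.91) for PU.1. All of these intervals overlap within a pair.

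**Figure D3:**
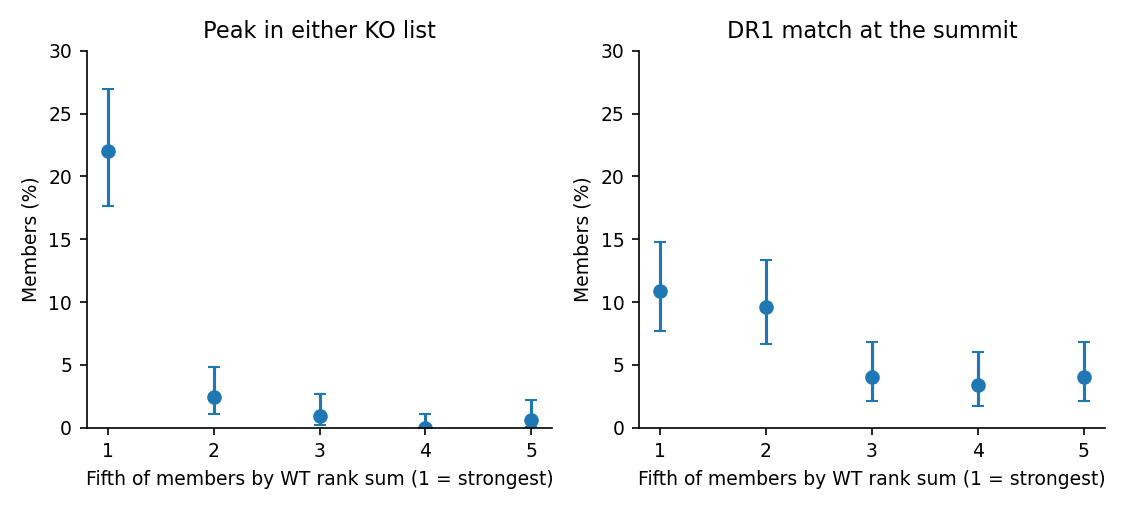
Share of members (y axes, %) with a peak in either KO list (left) and with a DR1 match at the summit (right), in 5 groups of 322 members ordered by the sum of their ranks in both WT lists (x axes, 1 strongest). Points are shares with 95% exact binomial intervals; the KO share is 22.0% in the first group and 2.48% or less in the others, and the DR1 share 10.9% and 9.63% in the first 2 groups and 3.42% to 4.04% in the rest.

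The 3 members with a perfect DR1 ranked 254, 513 and 550 among the 1610 by WT strength, and the following 3, with 1 mismatch, 59, 83 and 161. Rassf5, a Ras effector gene, had −log10 q values of 14.7 for WT A and 10.5 for WT G. Smg6, an endonuclease of nonsense-mediated decay, had 6.69 and 12.2 (chr11:75136951-75137370), and the nearest TSS was that of Hic1, 32.4 kb away. Rrbp1, a ribosome-binding protein of the endoplasmic reticulum, had 16.97 and 5.73 (chr2:144009345-144009853). With 1 mismatch, Abcd2 (intron 6) had 22.0 and 17.3, Itpkb, an inositol trisphosphate kinase, 19.4 and 15.9 (chr1:180403537-180404851), and the lincRNA 4930552P12Rik, 81.6 kb upstream of the TSS of Tcf7l2, 16.2 and 12.4 (chr19:55659767-55660621). None of these 6 had a KO peak, beside 5.22% of all members, so nothing is read from this. The summits of WT A and WT G in Itpkb were at the same base, whereas those in Abcd2 were 287 bp apart.

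The rule limits the distance of a member to the nearest protein-coding TSS to 100 kb. Within this limit the median distance was 14.4 kb (quartiles 4.56 and 32.0 kb), with 640 members within 10 kb (39.8%, 37.4 to 42.2) and 208 over 50 kb away (12.9%). Of the 1610, 361 (22.4%, 20.4 to 24.5) were upstream of the nearest TSS, which can be an internal start of their host gene or that of a neighbour. By the longest transcript of the host, 794 members were in a first intron (49.3%, 46.9 to 51.8), 304 in a second (18.9%) and 512 in a later one (31.8%). First introns made up 31.9% of all intron bases of the same transcripts. These bases had no distance limit, whereas members had to lie within 100 kb of a TSS, so the shares are not on equal terms. Of the 49 members in a transcript with 1 intron, all count as first, and without them the share was 47.7% (45.2 to 50.2). The intron that held a member had a median length of 21.6 kb.

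**Figure D4:**
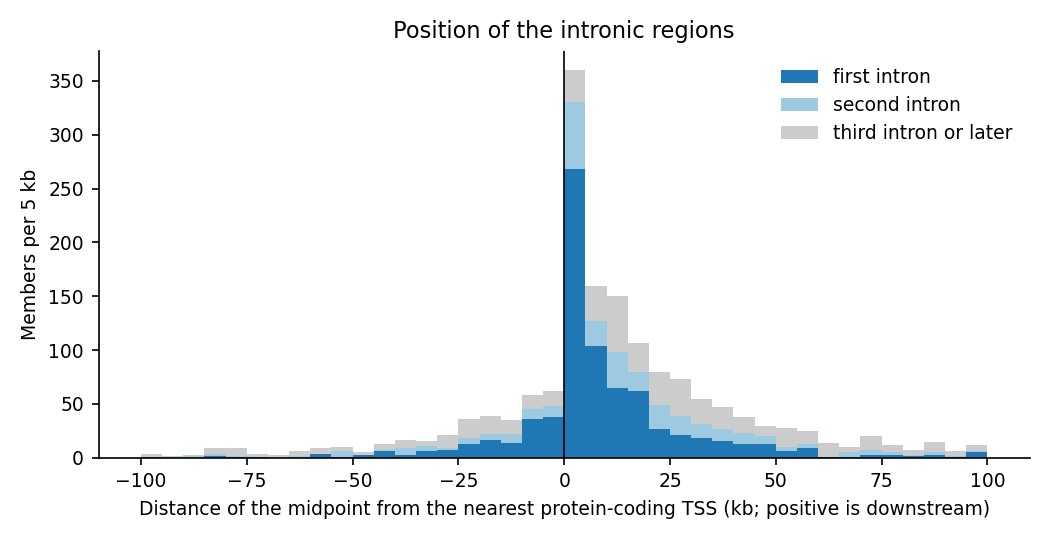
Number of intronic members (y axis, per 5 kb) by the distance of their midpoint from the nearest protein-coding TSS (x axis, kb, positive downstream), stacked by whether the intron is the first, the second or a later one of the host's longest transcript. Members crowd just downstream of the TSS, where most are in first introns (dark blue), and the median distance is 14.4 kb.

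The host of 1463 members (90.9%, 89.4 to 92.2) was a protein-coding gene. The other 147 lay in genes of other kinds, among them 84 in lincRNA, 31 in antisense and 28 in processed transcript genes. For 1259 members (78.2%, 76.1 to 80.2) the host was also the gene with the nearest protein-coding TSS, and among protein-coding hosts this share was 86.1% (84.2 to 87.8). Where they differed, the assignment of a region changed with the choice of gene: the strongest member was assigned to A530013C23Rik or to Cebpb, the third to Fgfr2 or to Tacc2, and a member in Trp53cor1, a long non-coding RNA gene (chr17:29070503-29071184), to that gene or to Cdkn1a, which encodes the cell cycle inhibitor p21, 20.1 kb away. The last had fold enrichments of 12.99 (WT A), 16.1 (WT G), 6.61 (KO A) and 5.17 (KO G). It was named after its values were seen.

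The summits of the WT libraries were a median of 99 bp apart (quartiles 46 and 168 bp). They were within 50 bp of each other in 435 members (27.0%, 24.9 to 29.3), within 100 bp in 814 (50.6%) and over 500 bp apart in 32 (1.99%). WT A had more than 1 peak in 205 members (12.7%) and WT G in 46 (2.86%).

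The members were hosted by 1011 genes, of which 677 held 1 member and 334 held 2 or more, with 933 members in the latter. Of 20546 protein-coding genes with an intron, 910 hosted a member (4.43%). This share rose with total intron length, from 0.0973% in the tenth of genes with the shortest introns to 13.05% in the tenth with the longest, and hosts had a median of 58.3 kb of introns, against 15.8 kb for all. The gap between neighbouring members was under 10 kb in 394 of 1590 cases, with a median of 237.3 kb.

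The largest number of members, 14, was assigned to Gm20388, but this transcript spans 4435 kb of chromosome 8 (chr8:119910841-124345722), and its members lay in its first intron near 12 other genes, such as Cyba, a subunit of the NADPH oxidase. Sgms1, Nedd9, Iqgap1 and Rin2 hosted 8 each, and Tcf7l2, Cdk6, Nceh1 and Dhrs7b, tied for the sixth place, 7 each. Among the latter 8 genes, members spread over 10.7 kb in Dhrs7b to 148 kb in Nedd9.

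Sgms1, which makes sphingomyelin, held the strongest of these members in WT A (intron 4, chr19:32223151-32225190), with a −log10 q of 41.3 (WT A), 17.3 (WT G) and 7.47 (KO G) and no peak in KO A. Its other 7 members lay between 5.22 and 24.6 in WT A and between 3.61 and 18.8 in WT G, and 1 of them (intron 5, chr19:32180190-32182814) had peaks in both KO lists, with 7.30 in KO A and 5.20 in KO G. In Nedd9, a scaffold of cell adhesion and migration, the strongest member (intron 1, chr13:41466143-41468871) had 19.3 in WT A and 31.2 in WT G and no KO peak, whereas a weaker one (intron 3, chr13:41330811-41332125), with 15.8 and 18.8, had 6.15 in KO A and 9.89 in KO G.

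Iqgap1, a scaffold that links Rac and Cdc42 to actin, held 8 members within 24.4 kb, 7 of them in intron 2. Their −log10 q lay between 3.43 and 18.2 in WT A and between 3.61 and 29.7 in WT G, and none had a KO peak. Rin2, an exchange factor of Rab5, held 8, with 3.20 to 24.6 in WT A and 3.61 to 13.2 in WT G, and 1 had a peak in KO G. Nceh1, a cholesteryl ester hydrolase, held 7, with 6.16 to 20.7 and 9.26 to 15.8, 2 of them with a DR1 at the summit. Cdk6, a kinase of the cell cycle, held 7, and Tcf7l2, a Wnt effector, 7, of which 6 were in intron 4. None of the members in Iqgap1, Tcf7l2, Cdk6, Nceh1 or Dhrs7b had a peak in either KO list, beside 5.22% of all members, a share at which few would be found in these genes.

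Genes of 8 lists were then counted as hosts, beside the 4.43% of all protein-coding genes with an intron. The lists were written with earlier results of these data known, and some of their genes are named by the study, so the counts are not independent evidence. For lipid handling, 16 of 32 genes hosted a member (50%, 31.9 to 68.1), with a median intron length of 18.2 kb in the list, a length at which 4.04% of all genes were hosts (the sixth of 10 groups by length). For cytoskeleton and phagocytosis it was 14 of 28 (50%, 30.7 to 69.4), with a median intron length of 121.3 kb, a length at which 13.05% were hosts. For AM markers it was 8 of 20 (40.0%, 19.1 to 64.0), with a median of 17.8 kb of introns (4.04% at this length). For lineage transcription factors it was 8 of the 21 with an intron (38.1%, 18.1 to 61.6), with a median of 45.8 kb (6.28%). Nuclear receptors and coregulators followed with 7 of 30 (23.3%, 9.93 to 42.3), with a median of 69.4 kb (9.93%), and GM-CSF, TGFβ, M-CSF and Notch signalling with 4 of 26 (15.4%, 4.36 to 34.9), with a median of 52.1 kb (6.28%). The lists of other cells had shorter introns. Of monocytes and other macrophages, 1 of 15 genes was a host (6.67%, 0.169 to 31.9), with a median of 9.34 kb (1.95%), and of other lung and blood cells 2 of 22 (9.09%, 1.12 to 29.2), with a median of 3.92 kb (1.12%). The lower bounds for lipid handling, cytoskeleton and phagocytosis, AM markers and lineage transcription factors were above the share at the length of the list's median gene. Those for nuclear receptors and for other lung and blood cells were level with it, and those for signalling and for monocytes and other macrophages were below it. The shares by length count all protein-coding genes with an intron, whether or not AMs express them, and expression was not matched.

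**Figure D5:**
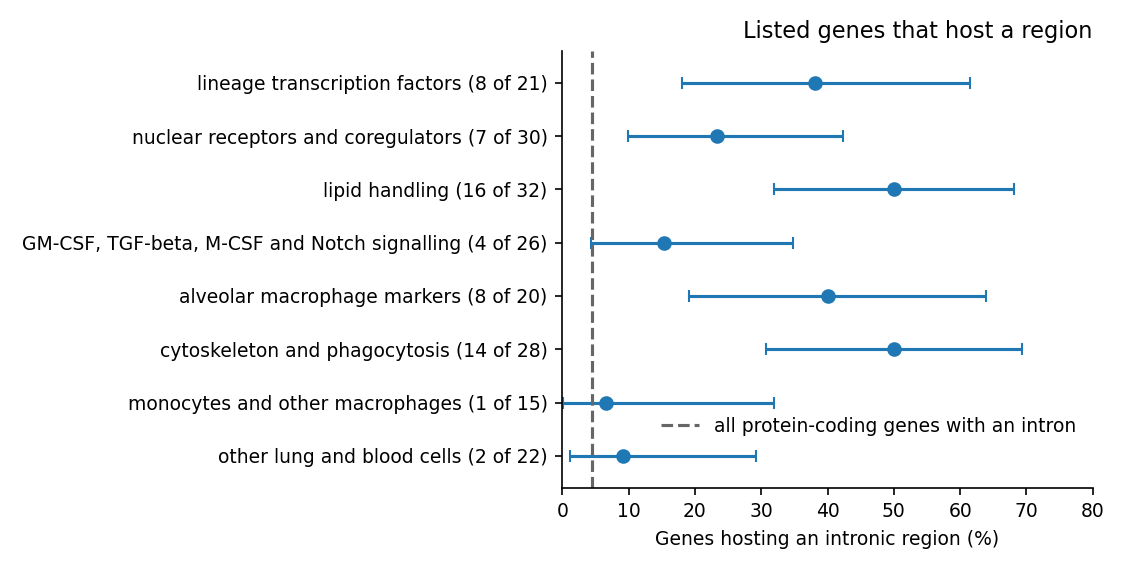
Share of the genes with an intron in each of 8 lists that host an intronic member (x axis, %), with 95% exact binomial intervals and the counts in parentheses; the dashed line is the share of all protein-coding genes with an intron (4.43%). Lipid handling and cytoskeleton and phagocytosis have the highest shares (50%), and the lists of signalling and of other cells have intervals that hold the dashed line, which does not account for the length of introns or for expression.

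The lipid genes covered uptake, storage, breakdown and export. The strongest after Angptl4 was in Cd36, a receptor for fatty acids and oxidized lipoproteins (intron 2 of 15, chr5:17833600-17836287, 0.752 kb from a TSS), with a −log10 q of 23.3 (WT A), 26.4 (WT G) and 4.15 (KO G) and no peak in KO A. In Cpt1a, which brings fatty acids into mitochondria, it was 12.4 (WT A), 13.2 (WT G), 5.04 (KO A) and 4.15 (KO G) (intron 1 of 18, chr19:3325220-3325938). Mylip, which targets the LDL receptor for degradation, had 9.11 and 15.9 in WT and no KO peak (chr13:45391529-45392295). In Cpt1a and Cd36 the WT values were above each KO value measured. Hosts also included the sterol exporters Abca1 and Abcg1, the lipases Lpl and Lipa, the fatty acid handling genes Fabp1 and Acsl1, the droplet protein Plin2, the acyltransferases Soat1 and Dgat1, and Npc2 and Ucp2. No strongest member of these genes had a KO peak, beside 5.22% of all members, so few would be found at that share. Their −log10 q lay between 1.96 (Abcg1) and 14.7 (Lipa) in WT A and between 4.64 (Acsl1) and 13.2 (Soat1) in WT G.

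AM marker genes hosted 12 members. Cdh1, which encodes E-cadherin, had a −log10 q of 16.97 (WT A), 17.3 (WT G), 8.48 (KO A) and 7.47 (KO G) (intron 2 of 15, chr8:106611110-106612677). It was the 1 host of this list with a KO peak, beside 5.22% of all members. Atp6v0d2, a subunit of the vacuolar proton pump, had 15.8 and 14.5 in WT (chr4:19894465-19895952), Mrc1, the mannose receptor CD206, 13.5 and 15.9 (chr2:14249488-14250802), and Krt79, a keratin gene, 12.4 and 14.5 (chr15:101936246-101936970). The strongest members in Siglecf (6.15 and 5.73), Olr1 (9.11 and 8.04), Cd9 (12.4 and 5.73) and Naip1 (9.11 and 4.84) were weaker in at least 1 library.

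Among lineage transcription factors, Runx1 held the strongest member (intron 2 of 7, chr16:92783400-92784744), with a −log10 q of 22.0 (WT A), 11.8 (WT G) and 2.51 (KO G) and no peak in KO A. Tcf7l2 had 12.4 and 13.2 in WT (intron 3, chr19:55803101-55803773), Runx2 12.4 and 10.5 (intron 5, chr17:44663100-44664681) and Atf3, a stress-induced factor, 8.06 and 10.5 (intron 1, chr1:191197638-191198454). Spi1, which encodes PU.1, had 7.31 and 9.82. Klf6, Mitf and Tfec were the other hosts. Of the 24 genes of this list, 21 have an intron.

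Receptors that pair with RXR were among the hosts. Rara, a retinoic acid receptor, held the strongest member of its list (intron 1 of 8, chr11:98941678-98942688), with −log10 q values of 11.3 for WT A and 15.9 for WT G. Nr1d1, the repressor REV-ERBα, had 6.16 and 13.2 (chr11:98772927-98774341), and Ncoa2, a coactivator, 5.50 and 9.26 (chr1:13206809-13207220), although Prdm14 was the nearest gene to the latter. Pparg had 7.14 and 5.73, and Vdr 6.16 and 6.88. The weakest was Nr4a1, with 5.22 and 2.63. None of the 15 members of this list had a KO peak, beside 5.22% of all members, a share too low for the absence to be read.

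Of the signalling genes, Ski, a repressor of SMAD activity, held the strongest member (intron 1, chr4:155217127-155218073), with −log10 q values of 15.8 for WT A and 15.9 for WT G. Notch2 had 12.4 and 8.04 (chr3:98055483-98056166), Maml2, a coactivator of Notch, 9.81 and 9.12 (chr9:13586262-13587396), and Tgfbr2, a TGFβ receptor, 7.14 and 3.61 (chr9:116169236-116169506). The GM-CSF receptor genes Csf2ra and Csf2rb, the kinase gene Jak2 and the factors Stat5a, Stat5b, Smad4 and Rbpj hosted no intronic member. Peaks outside the members were not counted for these genes, so they are not shown to lack RXRα.

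Cytoskeletal and phagocytic genes held 31 members, none with a KO peak, beside 5.22% of all members, a share at which few of 31 would have one. The strongest were in Dock5 (intron 21 of 51, chr14:67810826-67812096) and Elmo1 (intron 1 of 21, chr13:20092005-20092966), whose products belong to families that act together on Rac. Dock5 had −log10 q values of 13.5 for WT A and 28.1 for WT G, with the summits at the same base, and Elmo1 13.5 and 21.8. Mertk, a receptor for apoptotic cells, had 10.2 and 12.2 (chr2:128719242-128719878), and Itgb2, the β2 integrin, 8.06 and 13.2 (chr10:77536461-77537434). The region of Dock5 held a DR1 with 1 mismatch 460 bp from the summit.

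Genes of other cells had 4 members between them. Cx3cr1, a chemokine receptor of monocytes and interstitial macrophages, had 7.14 in WT A and 6.88 in WT G (chr9:120058555-120059068). Ms4a1, which encodes CD20 of B cells, had 12.5 and 8.04 (chr19:11263423-11264105), and Pecam1, an adhesion molecule of endothelium that leukocytes also express, 2.50 and 14.5 (chr11:106741354-106741660). The study describes the profiled cells as sorted mature AMs, which it defines as negative for CD11b and positive for SiglecF. Whether other cells contributed to these peaks was not tested.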

How the data were processed

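Before deposit, the authors removed adapters (Cutadapt 1.7.1), mapped read pairs on mm10 (Bowtie2), marked duplicates with Picard, kept properly paired reads above Q30 with samtools 0.1.18, and called peaks for each library against the input with MACS3 3.0.0a5 at q 0.05. Each library has its own list. In these deposited lists, fold enrichment is a ratio of pileup to background at the summit, each with a pseudocount, −log10 p and −log10 q refer to the summit, the score is 10 times the −log10 q, and a further deposited column gives the offset of the summit. The study compared read counts between genotypes; the lists hold none, so peaks were compared.

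Lists were analysed in Python 3.11.15 with scipy 1.17.1, pysam 0.24.0 and pandas 2.3.3. Annotation was GENCODE M21 basic, with sequence from the RefSeq copy of GRCm38.p6. Shares have exact (Clopper-Pearson) 95% intervals. The intron number was that of the longest transcript, protein-coding first. Fragments at summits were solved from fold enrichment and p as whole numbers within 0.012. In WT A a fragment counted 0.884, as pileups had been scaled. Simulated data with known answers were used to test the overlap, motif and fragment steps. Labels give A and G in both genotypes; no source says that the letters pair the samples.

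Named were the 6 members strongest in WT, the 6 strongest in both KO lists, up to 4 hosts per list, the 6 hosts with most members (ties kept), the 6 members with the best DR1, and Rxra, Rxrb and Itgax. Sequence from one chromosome was not printed, and some named genes and windows are not reported here. Members and lists were chosen with earlier results of these data known.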

Additional observations from a re-analysis of the deposited data

How the results depend on the processing

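Of 80 alternatives over 17 results, 64 left the value within 1.5 times (counts), on the same side (genotype comparisons) or within its interval, and none reversed a direction. The number of members was 703 where peaks had to overlap by 50%, with 1.42% holding a KO peak and a median of 75 bp between WT summits (93.5 bp for the closest pair). Leaving out 1 library gave 2207 to 4568 members, a WT to KO ratio of intronic peaks of 36.3 to 93.9, a difference in the intronic share of 3.54 to 5.34 points, 1.99% to 4.66% of members with a KO peak, 5.22% to 7.02% with a DR1 and a DR1 ratio of 3.57 to 3.65. The lowest number is without WT G and the highest without WT A, and the lowest KO share is without KO G. The ratio was lowest without WT G and highest without KO G. With RefSeq annotation the difference in the intronic share was 7.99 points. Taking A and G as pairs (replicate block) gave a ratio of 56.8 and a difference of 4.44 points. For DR1 the members were kept as they were, and only the window was moved to the summit of 1 WT library. The share was 5.22% at WT G summits (ratio 3.57) and 7.02% at WT A summits (ratio 3.65). The DR1 share was 1.37% with at most 1 mismatch (ratio 11.0) and 11.0% in windows of 100 bp on each side (ratio 3.11), and the ratio was 3.43 with flanks at 1000 bp. First introns held 43.4% of members with promoters of 3 kb on each side, and 56.5% by the lowest intron number of any transcript. The host was the nearest gene in 82.8% with RefSeq annotation and in 86.1% of protein-coding hosts. Causes were not tested. From called peaks alone, any loss of binding below the calling threshold was not sized here.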
